A study of Rattus norvegicus with 10 samples.

Results

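After 8 h of follicle-stimulating hormone (FSH), transcript levels in cultured Sertoli cells from 20-day-old rats were compared with those of untreated cultures at 0 h, over every probe set of the array that is not a control. The comparison used 4 of the study's 10 arrays: 2 arrays of cells given FSH for 8 h and 2 of untreated cells at 0 h, each pair labelled replicate 1 and replicate 2. A probe set is a group of probes on the array for 1 transcript. The other 6 arrays hold cells after 2, 4 and 24 h of FSH, 2 arrays at each time, and enter the shared estimate of the spread. The labels name no genetic change, strain, FSH dose or culture medium. The labels give no untreated culture at a later time, so 8 h of FSH and 8 h more in culture cannot be told apart. The labels do not say whether the replicates were separate cell preparations, so the p-values reflect the spread between the deposited arrays alone, and that spread may be technical.

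Sertoli cells line the seminiferous tubule and nurse the developing germ cells. FSH, a pituitary hormone, binds its receptor Fshr on their surface, which raises cAMP, activates protein kinase A and phosphorylates CREB, a factor that binds cAMP response elements in promoters. The cells are known to pass lactate to germ cells, to store and burn lipid, and to secrete hormones, carrier proteins, proteases and matrix proteins into the tubule. RNA was measured in bulk, so fewer cells of a type and less RNA per cell cannot be told apart.

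Intensities below are given after scaling each array to a common 75th percentile of 108, with replicate 1 before replicate 2. Values under a floor of 13.5 were set to the floor before log2 was taken, so a change that involves such a value is understated. The test covered 4439 of the 8740 probe sets, those with a mean at or above the pooled median intensity. Over these, replicates correlated at 0.904 in the 8 h group and 0.867 in the 0 h group, and the SD of the log2 difference between replicates was 0.807 at 8 h and 0.979 at 0 h. The share of probe sets at the floor was 33.9% and 33.2% at 8 h, against 34.3% and 24.3% at 0 h. The ratio of the 3′ to the 5′ probe set of beta-actin, a sign of RNA integrity, was 0.928 and 1.52 at 8 h, against 1.17 and 1.76 at 0 h. Of the Sertoli markers, 12 probe sets of 8 genes were tested. Sums of marker intensity here cover every probe set of a list's genes, also those too dim to be tested. The sum of the Sertoli markers was 18944 and 11399 at 8 h, against 16786 and 9478 at 0 h. These markers include both Inha probe sets, which rose and whose values are given below. Clusterin (Clu), an abundant Sertoli product, read 11879 and 7558 at 8 h, against 13806 and 7708 at 0 h. Germ cell markers (9 probe sets of 8 genes tested) summed to 599 and 2834 at 8 h, against 1097 and 2495 at 0 h, so they followed the replicate number more than the treatment. Fibroblast markers (12 probe sets tested) summed to 962 and 2029 at 8 h, against 701 and 1670 at 0 h. Myoid (6 probe sets tested), Leydig (2), endothelial (1) and macrophage (2) markers summed to at most 1052 on any of these arrays. No marker of another cell type was called at 8 h.

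At an adjusted p under 0.05 in limma, which was run over all 10 arrays, 33 probe sets were higher after 8 h of FSH than at 0 h (0.743% of those tested) and 1 was lower (0.0225%). The 33 rises belonged to 26 genes and spanned log2 changes of 1.64 to 4.88, with a median of 3.32. The median over all tested probe sets was -0.03. Same-numbered arrays deviated from their group means in the same direction (r = 0.353 between the 8 h and 0 h pairs), so the replicate number was also fitted as a block. With the block, 102 probe sets were higher (2.30%) and 17 were lower (0.383%), and these included all 33 rises and the fall of the fit without it. In all 102 rises both 8 h arrays lay above both 0 h arrays, and in all 17 falls both lay below. Over all tested probe sets, 17.7% had both 8 h arrays above both 0 h arrays and 17.2% had them below.

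**Figure D1:**
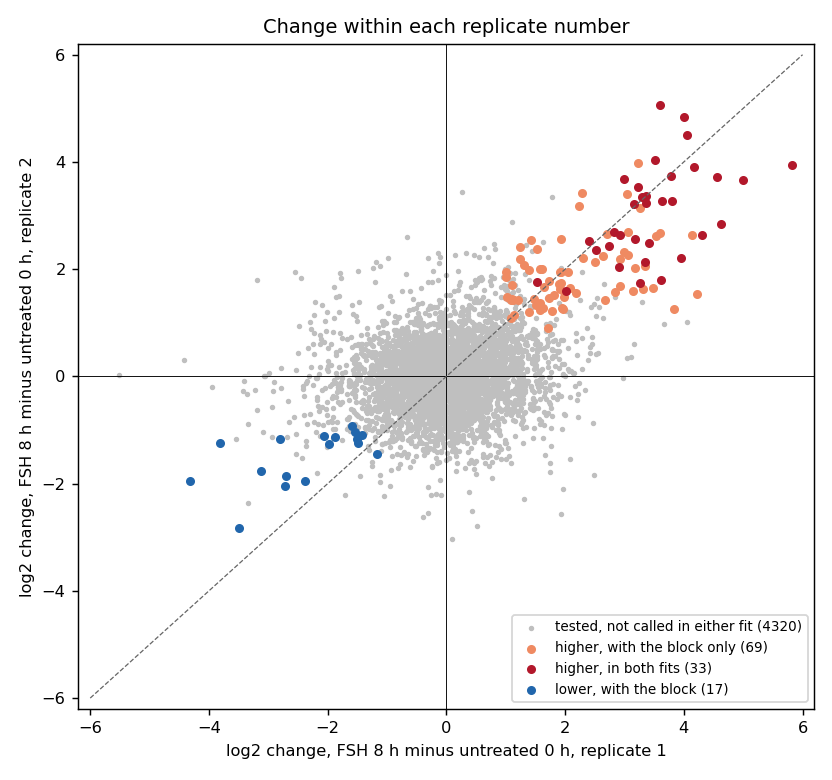
Log2 change (FSH 8 h minus untreated 0 h) within replicate 1 on the x axis and within replicate 2 on the y axis, 1 point per tested probe set; the dashed line marks equal change. The 33 probe sets called higher in both fits and the 69 called higher only with the replicate block lie in the upper right, and 16 of the 17 called lower with the block changed more in replicate 1.

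The calls depended on the few arrays. Leaving out the replicate 1 array of 8 h kept 5 of the 33 rises, and leaving out its replicate 2 array kept 13. Leaving out the 0 h arrays kept 9 (replicate 1) and 19 (replicate 2). Leaving out an array of another time kept between 22 and 25 of them. A group left with a lone array was taken to vary as the other groups do. All 33 kept their direction in each of these fits. With the block, all 33 were still called without either 0 h array, 20 without 8 h replicate 1 and 27 without 8 h replicate 2.

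The plot of intensities by probe set shows the rises in order of size. Most started near the floor: the median of the 0 h means was 28.4, against 390 for the 8 h means. Both 0 h arrays were under the floor in 3 of the 33.

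**Figure D2:**
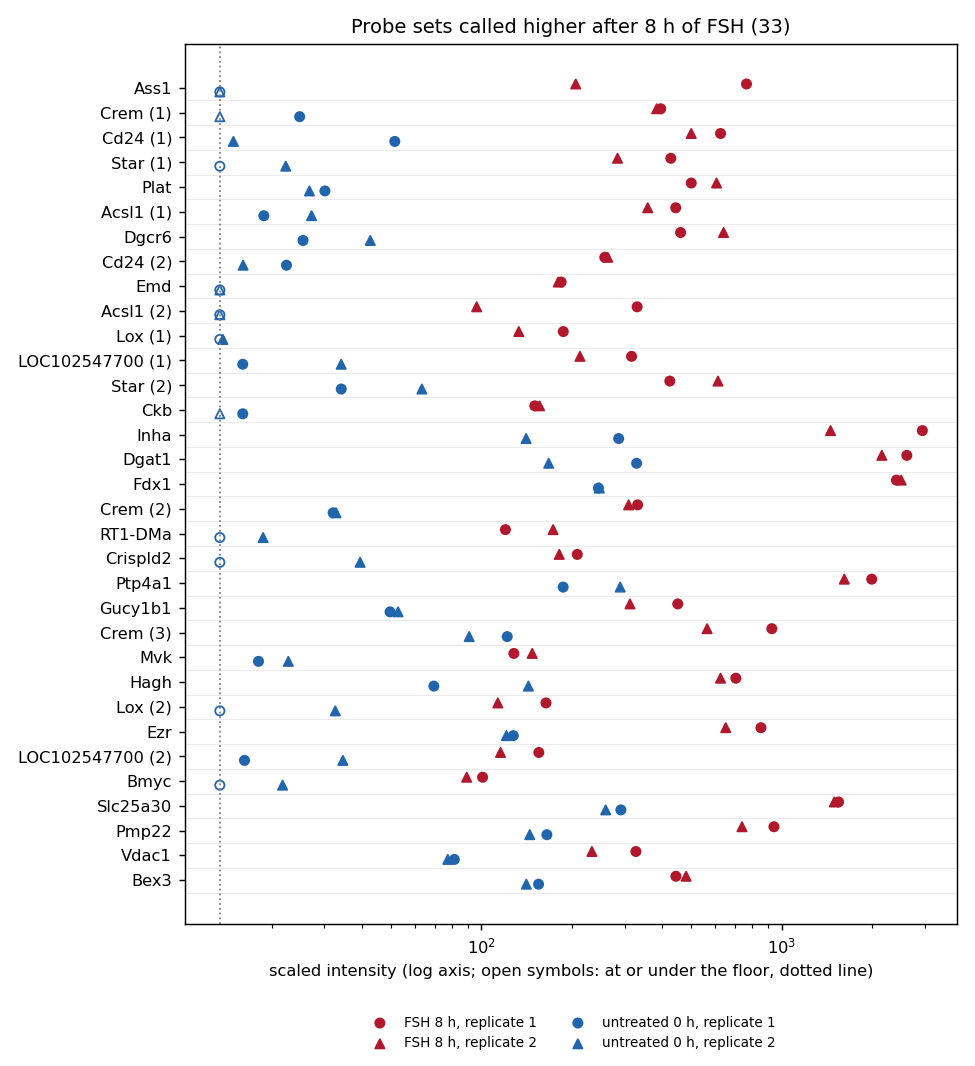
Scaled intensity (log axis) of the 33 probe sets called higher after 8 h of FSH, ordered by log2 change, with the 2 arrays at 8 h of FSH in red and the 2 untreated arrays at 0 h in blue; numbers in brackets tell apart probe sets of 1 gene, and open symbols lie at or under the floor (dotted line). In every row both red points lie to the right of both blue points.

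Promoters of 4 of the genes that changed are printed here, because they carry a cAMP response element or an E-box and stand for the main groups described below: Crem (a cAMP-responsive repressor), Inha (a secreted hormone subunit), Mvk (a metabolic enzyme) and Nr1d1 (a clock gene that was lower). Each runs 5′ to 3′ on the gene's strand from 250 bases before to 50 bases after the transcript start in RefSeq (build GRCr8), and capitals mark the motif.
Crem: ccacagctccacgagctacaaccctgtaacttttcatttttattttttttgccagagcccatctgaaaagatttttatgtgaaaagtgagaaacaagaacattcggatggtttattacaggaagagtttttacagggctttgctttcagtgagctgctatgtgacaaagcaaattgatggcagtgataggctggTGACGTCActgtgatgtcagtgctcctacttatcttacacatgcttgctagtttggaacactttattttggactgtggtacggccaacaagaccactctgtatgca
Inha: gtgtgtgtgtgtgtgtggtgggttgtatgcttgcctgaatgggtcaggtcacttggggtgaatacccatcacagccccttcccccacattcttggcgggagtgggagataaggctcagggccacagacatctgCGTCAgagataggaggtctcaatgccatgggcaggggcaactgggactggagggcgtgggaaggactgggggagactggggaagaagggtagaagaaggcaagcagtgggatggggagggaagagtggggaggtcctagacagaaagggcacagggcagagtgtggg
Mvk: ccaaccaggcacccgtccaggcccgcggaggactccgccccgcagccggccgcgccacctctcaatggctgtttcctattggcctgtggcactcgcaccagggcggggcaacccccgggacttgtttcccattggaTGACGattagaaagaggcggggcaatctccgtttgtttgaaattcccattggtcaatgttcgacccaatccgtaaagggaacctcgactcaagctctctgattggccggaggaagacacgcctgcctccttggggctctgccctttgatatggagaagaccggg
Nr1d1: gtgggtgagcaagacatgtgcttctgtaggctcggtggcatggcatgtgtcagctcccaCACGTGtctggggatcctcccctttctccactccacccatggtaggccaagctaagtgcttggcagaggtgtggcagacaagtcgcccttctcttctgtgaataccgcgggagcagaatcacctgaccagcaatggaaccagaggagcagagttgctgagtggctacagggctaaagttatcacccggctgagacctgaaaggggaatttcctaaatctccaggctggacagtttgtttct
The Crem promoter lies at chr17:58984547-58984846 on the plus strand and is 1 of 3 that the table gives for the gene. It holds the full palindrome TGACGTCA 56 bases before the start. The Inha promoter lies at chr9:84442859-84443158 on the plus strand and holds the shorter TGACG, here on the opposite strand, 117 bases before the start. The Mvk promoter lies at chr12:47819454-47819753 on the minus strand and holds TGACG 114 bases before the start. The Nr1d1 promoter lies at chr10:84229405-84229704 on the minus strand, is 1 of 2 given, and holds the E-box CACGTG 191 bases before the start. The motifs searched were TGACGTCA and the shorter TGACG (cAMP response elements), the E-box CACGTG, and the Dbp site TTATGTAA. Each was sought on both strands. A match of the full palindrome also counts for the shorter element, which lies within it.

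Of the 69 genes called higher with the replicate block, 55 had a promoter in the table. TGACGTCA was found for 6 of these 55 genes (10.9%): Crem, Dusp1, Fat1, LOC102547700, Pak1 and Txnl1. It was found for 2.94% of the 2277 tested genes that have a promoter, and in 1.83% of all 33469 promoters. TGACG was found for 27 of the 55 (49.1%), against 33.4% of tested genes and 21.2% of all promoters. CACGTG was found for 8 of the 55 (14.5%), against 10.5% of tested genes and 6.42% of all promoters. Of the 13 genes called lower with the block, 10 had a promoter, and TGACGTCA was found for 0, TGACG for 3 (Blmh, RT1-M3-1 and Slc37a4) and CACGTG for 1 (Nr1d1). TTATGTAA, which the clock factor Dbp binds, was found for none of the genes in either direction, against 0.264% of tested genes and 0.893% of all promoters. The shares of all promoters count promoters, whereas the other shares count genes. Counted by gene, over all 27457 genes with a promoter, TGACGTCA was found for 2%, TGACG for 23%, CACGTG for 7.08% and TTATGTAA for 0.958%. These shares are descriptions and were not tested.

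Among metabolic genes, Star and Fdx1, which act in the delivery of cholesterol to the mitochondrion and in its side chain cleavage, were higher at 8 h. Of 20 tested probe sets for cholesterol delivery and mitochondrial steroid synthesis, 3 were called higher (7 with the replicate block) and 0 lower. Over all tested probe sets, 0.743% were called higher (2.30% with the block). The list's calls were all of Star, Fdx1 or Scarb1. Its median was 0.48, and 0.13 with only the brightest tested probe set of each gene. Star, which moves cholesterol into the mitochondrion, read 424 and 614 at 8 h, against 34.1 and 63.4 at 0 h on its brighter probe set, a log2 change of 3.46 ± 0.49 (SE, n = 2 arrays per group, adjusted p = 0.0118). Another Star probe set read 428 and 284 at 8 h, against 2.71 and 22.3 at 0 h, with 1 of the 0 h arrays under the floor, and changed by 4.33 ± 0.37 (adjusted p = 0.00116). The groups were far apart on both. Fdx1, the ferredoxin that carries electrons to mitochondrial P450 enzymes, read 2414 and 2504 at 8 h, against 245 and 247 at 0 h, a 9.98-fold rise that was nearly equal in both replicates (3.32 ± 0.35, adjusted p = 0.00335). The other Fdx1 probe set was called only with the block: it read 94.8 and 291 at 8 h, against 47.04 and 75.99 at 0 h (1.48, adjusted p = 0.637 without the block and 0.0498 with it).

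Scarb1, the receptor that takes up cholesteryl ester from high-density lipoprotein, was called on all 3 of its tested probe sets, but only with the block. The one that changed most read 1434 and 569.5 at 8 h, against 172 and 87.7 at 0 h. Its log2 change of 2.88 had an adjusted p of 0.0594 without the block and 0.000605 with it. The other 2 changed by 1.99 and 2.86 (adjusted p = 0.273 and 0.182 without the block, 0.0233 and 0.0455 with it). In each of the 3, replicate 1 was brighter than replicate 2 at both times, and both 8 h arrays lay above both 0 h arrays. The side chain cleavage enzyme Cyp11a1 and aromatase, Cyp19a1, which act downstream, lay under the intensity filter and were not tested. Cyp11a1 read 17.7 and 11.5 at 8 h, against 13.1 and 14.04 at 0 h, and Cyp19a1 28.9 and 26.99 at 8 h, against 2.28 and 26.3 at 0 h. Without 8 h replicate 1 the adjusted p of Fdx1 was 0.0541. That of the brighter Star probe set was 0.0961 without 0 h replicate 1, and 0.107 and 0.115 when the first or the second 8 h array was left out, whereas the other Star probe set was called in all 10 fits that left out an array.

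In cholesterol synthesis itself, Mvk was the gene called. Of 28 probe sets, 1 was called higher (2 with the block), where 0.743% of all tested probe sets were (2.30% with the block), and 0 were called lower. The median was -0.28, and 3 lay above and 8 below the 0 h arrays without overlap. Among all tested probe sets, 17.7% lay above and 17.2% below. Both rises were of Mvk, mevalonate kinase, an early enzyme of the mevalonate pathway. Mvk read 128 and 148 at 8 h, against 18.1 and 22.8 at 0 h, a 6.78-fold rise (2.76 ± 0.36, adjusted p = 0.0102). Its other probe set read 237 and 231 at 8 h, against 100.4 and 43.02 at 0 h (1.83, adjusted p = 0.106 without the block and 0.0328 with it). The call on the first was lost without 0 h replicate 1 (adjusted p = 0.0618), 8 h replicate 1 (0.128) or 8 h replicate 2 (0.111).

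Among genes of fatty acid metabolism, Acsl1 and Dgat1 were higher at 8 h, and 1 probe set of Fasn was lower with the block. Acsl1, which attaches coenzyme A to long-chain fatty acids, read 444 and 358 at 8 h, against 18.9 and 27.2 at 0 h, a 17.6-fold rise (4.14 ± 0.47, adjusted p = 0.00433). Another Acsl1 probe set read 330.4 and 96.5 at 8 h, against 2.93 and 11.02 at 0 h, with both 0 h arrays under the floor, and was at least 13.3-fold higher (adjusted p = 0.0366). The replicates at 8 h differed widely there, but each was far above the floor. The last tested Acsl1 probe set was at least 8.40-fold higher and passed only with the block (adjusted p = 0.0594 without it and 0.0167 with it). Dgat1, which adds the last fatty acid of triacylglycerol, read 2614 and 2158 at 8 h, against 329 and 168 at 0 h (3.34 ± 0.38, 10.1-fold, adjusted p = 0.00433). Among lipid genes outside the lists, Plpp3, a lipid phosphatase, and Hacd3, of very long-chain fatty acid elongation, passed only with the block, with log2 changes of 2.55 and 1.78 (adjusted p = 0.0259 and 0.0133 with it, 0.0594 and 0.0781 without). Without 8 h replicate 1 neither the brightest Acsl1 probe set nor Dgat1 was called (adjusted p = 0.0948 for both), and the Acsl1 probe set was also lost without 0 h replicate 1 (0.0517). The Acsl1 probe set at the floor was lost in 8 of the 10 fits without an array (adjusted p 0.0552 to 0.386).

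Over the whole list of fatty acid activation, storage and oxidation, 56 probe sets were tested, 3 were called higher (4 with the block) and 0 lower (1 with the block), and the median was 0.01. Of all tested probe sets, 0.743% were called higher (2.30% with the block) and 0.0225% lower (0.383% with the block). The member called lower was Fasn, fatty acid synthase, which read 112 and 121 at 8 h, against 335 and 229 at 0 h. Its log2 change of -1.25 passed only with the block (adjusted p = 0.0449, and 0.19 without), and its adjusted p in the blocked fit was 0.118 without 0 h replicate 1. The other Fasn probe set read 231 and 133 at 8 h, against 660.0 and 256 at 0 h (-1.23, adjusted p = 0.517 without the block and 0.073 with it). Acaca, acetyl-CoA carboxylase, which makes the substrate of Fasn and is given here after its values were seen, read 18.05 and 22.1 at 8 h, against 92.5 and 54.3 at 0 h (-1.83, adjusted p = 0.325, and 0.0987 with the block). Gpam, which begins triacylglycerol synthesis and is also given after its values were seen, read 74.1 and 15.7 at 8 h, against 177 and 49.95 at 0 h, with overlapping groups (-1.46, adjusted p = 0.716, and 0.185 with the block). The other tested Gpam probe set had no steady direction. Its log2 change lay between -0.48 and 0.57 over all settings tried, changed sign in 4 of them and was called in none.

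Arginine and amino acid metabolism gave the rise with the highest log2 change of the 33. Ass1, which joins citrulline to aspartate in the remaking of arginine, read 764 and 206 at 8 h, against 2.06 and 8.89 at 0 h, with both 0 h arrays under the floor. It was at least 29.5-fold higher (4.88 ± 0.66, adjusted p = 0.0102). Asl, the next enzyme of that cycle, read 158 and 372 at 8 h, against 476 and 253 at 0 h on its brighter probe set, where the groups overlapped, and its 2 probe sets changed by -0.52 and -0.33 (adjusted p = 0.902 and 0.946). Ckb, the brain form of creatine kinase, read 151 and 156 at 8 h, against 16.04 and 9.33 at 0 h, with 1 of the 0 h arrays under the floor (3.39 ± 0.50, adjusted p = 0.0159). A brighter Ckb probe set read 1052 and 638 at 8 h, against 138 and 198 at 0 h (2.31, adjusted p = 0.0729 without the block and 0.00885 with it). The Ass1 call was lost without 0 h replicate 1 (adjusted p = 0.0754), 0 h replicate 2 (0.061) or 8 h replicate 1 (0.143), and the Ckb call when any 1 of the 4 arrays compared was left out (0.0771 to 0.161).

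In all, 55 probe sets of arginine, amino acid, creatine, polyamine and pterin metabolism were tested, of which 2 were called higher (7 with the block) and 0 lower (1 with the block), with a median of -0.19. The shares over all tested probe sets were 0.743% higher (2.30% with the block) and 0.0225% lower (0.383% with the block). Asns, asparagine synthetase, read 1504 and 569 at 8 h, against 157 and 64.4 at 0 h. Its log2 changes within the replicates were 3.26 and 3.14, and it passed only with the block (3.20 ± 0.25, adjusted p = 0.000148, and 0.0965 without). Got1, the cytosolic aspartate aminotransferase, read 1024 and 487 at 8 h, against 156 and 76.97 at 0 h (2.69 ± 0.27, adjusted p = 0.000702 with the block and 0.19 without). For both enzymes replicate 1 was about as far above replicate 2 at 8 h as at 0 h. Gchfr, the feedback regulator of the tetrahydrobiopterin enzyme Gch1, read 150.3 and 121 at 8 h, against 4.88 and 38.6 at 0 h (adjusted p = 0.029 with the block and 0.0693 without). All 4 Gch1 probe sets lay under the filter. Mat2a, which makes S-adenosylmethionine, changed by 1.43 (adjusted p = 0.0348 with the block and 0.37 without).

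Cdo1, cysteine dioxygenase, which begins the breakdown of cysteine, was the member called lower, and again only with the block. It read 122 and 99.3 at 8 h, against 848 and 223 at 0 h, so the fall was larger in replicate 1 (log2 changes of -2.80 and -1.17, adjusted p = 0.0388 with the block and 0.414 without). The other Cdo1 probe set read 72.1 and 45.1 at 8 h, against 388 and 130.3 at 0 h (adjusted p = 0.0518 with the block). Without 0 h replicate 1, the adjusted p of the first in the blocked fit was 0.12. Outside the list, Gls2, the liver form of glutaminase, read 107 and 66.8 at 8 h, against 3.14 and 8.62 at 0 h, with both 0 h arrays under the floor, and passed only with the block (adjusted p = 0.0193, and 0.06 without).

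Among mitochondrial genes, Vdac1 was called without the block, and Atp5f1d and Ndufa5 with it. Of 60 probe sets of the citric acid cycle and oxidative phosphorylation, 1 was called higher (4 with the block), where 0.743% of all tested probe sets were (2.30% with the block), 0 were called lower, and the median was 0.04. Vdac1, the channel of the outer mitochondrial membrane, read 327 and 234 at 8 h, against 81.3 and 77.3 at 0 h (1.80 ± 0.31, 3.49-fold, adjusted p = 0.0368), and was not called in any of the 10 fits without an array (adjusted p 0.063 to 0.409). Atp5f1d, a subunit of ATP synthase, read 2600.3 and 2305 at 8 h, against 1046 and 545 at 0 h on its brighter probe set, and changed by 1.70 and 1.40 on both (adjusted p = 0.0308 and 0.0259 with the block, 0.1 and 0.12 without). Ndufa5, a subunit of complex I, read 2074 and 1536 at 8 h, against 623 and 449 at 0 h (1.76, adjusted p = 0.00726 with the block and 0.12 without). Slc25a30, a carrier of the inner membrane, stands outside the list and was called without the block: it read 1549 and 1498 at 8 h, against 292 and 259.5 at 0 h (2.47 ± 0.31, adjusted p = 0.00935), and lost its call without either 8 h array (0.128 and 0.0656).

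The genes of lactate supply, for which Sertoli cells are known, gave no call in either fit. Of 52 probe sets of glucose uptake, glycolysis and lactate, 0 were called in either direction without or with the block, and the median was -0.20. Slc2a1, the glucose transporter, read 241 and 340.2 at 8 h, against 588 and 348 at 0 h (-0.66 ± 0.40, adjusted p = 0.701), and its dimmer probe set changed by -0.40. Slc16a1, a lactate and pyruvate transporter, changed by 0.58 and 0.10 on its 2 probe sets (adjusted p = 0.776 and 0.973). Ldhb, a lactate dehydrogenase subunit, read 2088 and 1172 at 8 h, against 2483 and 1340.1 at 0 h, and its probe sets changed by -0.22 and -0.21. Pkm, pyruvate kinase, read 2454 and 1875 at 8 h, against 5473 and 2104 at 0 h, where 0 h replicate 1 stood above the other 3 arrays (-0.66 ± 0.44, adjusted p = 0.757). Hk1 changed by -0.30 and 0.01 and Hk2 by 0.53 and 0.14, both hexokinases. Txnip, an inhibitor of glucose uptake, changed by -0.56 and -0.85 (adjusted p = 0.693 and 0.502). Ldha, which makes lactate, was not analysed here, since no probe set is annotated to it alone. The antioxidant and glutathione list (53 probe sets, median -0.15) gave 0 calls in either fit, although Hagh, the glyoxalase that frees glutathione from methylglyoxal adducts and no member of that list, was called higher. Hagh read 704 and 626 at 8 h, against 69.5 and 143 at 0 h (2.73 ± 0.47, adjusted p = 0.0368). It lost its call in 7 of the 10 fits without an array (adjusted p up to 0.33).

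**Figure D3:**
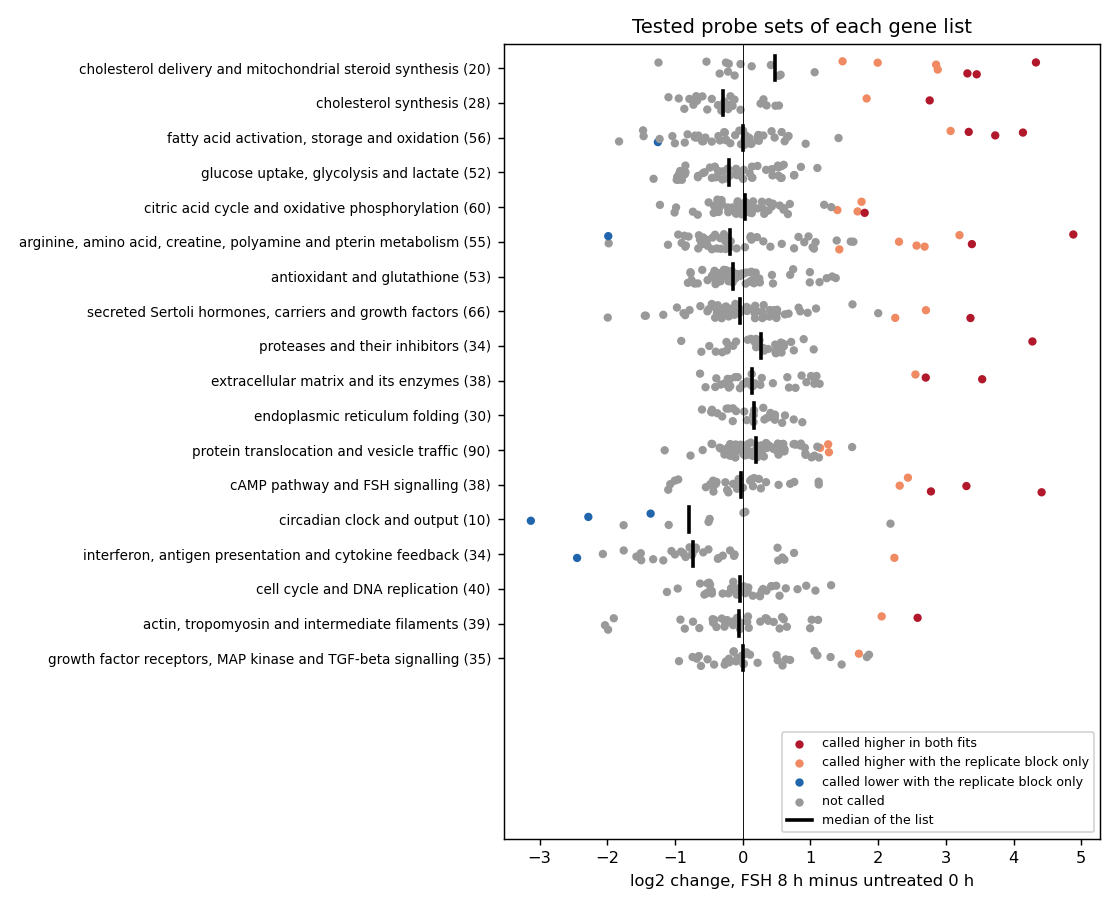
Log2 change (FSH 8 h minus untreated 0 h) of every tested probe set of the 18 gene lists, 1 point per probe set, with the number of probe sets in brackets and the median of each list as a black bar. The medians run from -0.80 for the circadian clock to 0.48 for cholesterol delivery and steroid synthesis, and the called rises lie at the right of their lists.

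Among secreted products, inhibin alpha was called higher. Inha, the alpha subunit of inhibin, the hormone by which Sertoli cells restrain pituitary FSH, read 2944 and 1456 at 8 h, against 287 and 141 at 0 h, a 10.3-fold rise (3.36 ± 0.55, adjusted p = 0.0302). The changes within the replicates were nearly equal (3.36 and 3.37). The other Inha probe set read 1796 and 768 at 8 h, against 363 and 167 at 0 h, and passed only with the block (2.25 ± 0.26, adjusted p = 0.0015, and 0.18 without). Inhba, a beta subunit, read 63.7 and 45.8 at 8 h, against 29.2 and 65.8 at 0 h, with overlapping groups (0.30, adjusted p = 0.944), and Inhbb lay under the filter. The first Inha probe set lost its call when any 1 of the 4 arrays compared, or either 4 h array, was left out. With the block it kept its call in all 7 alternatives that used more than the 2 groups compared. Wfdc1, a small secreted protein with a whey acidic protein domain, passed only with the block: it read 1424 and 651 at 8 h, against 302 and 71.99 at 0 h (2.71 ± 0.42, adjusted p = 0.00773, and 0.12 without).

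The other known Sertoli products given here did not pass the test. Of 66 probe sets for secreted hormones, carriers and growth factors, 1 was called higher (3 with the block), where 0.743% of all tested probe sets were (2.30% with the block), 0 were called lower, and the median was -0.05. Clu changed by -0.12 ± 0.37 (adjusted p = 0.97). Shbg, the androgen-binding protein, read 787 and 875 at 8 h, against 819 and 630.2 at 0 h (0.21 ± 0.31, adjusted p = 0.938). Amh, anti-Müllerian hormone, read 299 and 152 at 8 h, against 349.8 and 229 at 0 h (-0.41 ± 0.42, adjusted p = 0.879). Igfbp3, a binding protein of insulin-like growth factors, read 24.4 and 26.7 at 8 h, against 42.8 and 49.4 at 0 h (-0.85, adjusted p = 0.692). The receptor of the hormone given, Fshr, read 81.2 and 56.7 at 8 h, against 195 and 88.3 at 0 h (-0.95 ± 0.50, adjusted p = 0.64, and 0.148 with the block). Kitlg lay under the filter. Transferrin (Tf), for which the annotation used gives no probe set of its own, was not analysed here.

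A protease and a matrix enzyme were among the rises. Plat, tissue plasminogen activator, the protease that activates plasminogen, read 500.2 and 607 at 8 h, against 30.1 and 26.8 at 0 h, a 19.4-fold rise (4.28 ± 0.34, adjusted p = 0.00116). It was called in all 10 fits without an array. It was the only call among 34 probe sets of proteases and their inhibitors (1 with the block as well), whose median was 0.27. Lox, lysyl oxidase, which cross-links collagen and elastin, was called on 2 of its 3 tested probe sets. The one that changed most read 187 and 133 at 8 h, against 1.19 and 13.8 at 0 h, with 1 of the 0 h arrays under the floor (3.54 ± 0.38, 11.6-fold, adjusted p = 0.00372, and 0.0948 without 8 h replicate 1). The next changed by 2.70 ± 0.48 (adjusted p = 0.039) and lost its call in 9 of the 10 fits without an array. The last read 208 and 145 at 8 h, against 14.5 and 60.3 at 0 h, and passed only with the block (adjusted p = 0.0481, and 0.175 without). All 3 had the same direction, and in each the rise was larger in replicate 1. Of 38 probe sets of extracellular matrix and its enzymes, these 2 (3 with the block) were the calls and the median was 0.14. For comparison with the protease and matrix lists, 0.743% of all tested probe sets were called higher (2.30% with the block). Sparc, a matrix glycoprotein, changed by between -0.38 and 0.46 over 4 probe sets, with no call.

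Cltc, Arf4 and Arf6, of vesicle traffic, were higher with the block only. Of 90 probe sets for protein translocation and vesicle traffic, which serve uptake and recycling as well as secretion, 0 were called without the block and 3 with it, all higher, where 2.30% of all tested probe sets were called higher, and 24 lay above and 3 below the 0 h arrays without overlap. Over all tested probe sets the shares were 17.7% above and 17.2% below. The list's median was 0.20. Cltc, the clathrin heavy chain, read 917 and 1178 at 8 h, against 429.5 and 437 at 0 h (1.26 ± 0.25, adjusted p = 0.0298 with the block and 0.163 without). Arf4 and Arf6, small GTPases of vesicle budding, changed by 1.14 ± 0.25 and 1.27 ± 0.26 (adjusted p = 0.0449 and 0.0348 with the block, 0.23 and 0.21 without). Endoplasmic reticulum folding genes (30 probe sets, median 0.16) gave 0 calls in either fit, and the chaperone Hspa5 changed by 0.30 and 0.58. Other genes of secreted or cell surface proteins passed only with the block: Spock2 and Cspg5, both proteoglycans (1.86 and 2.67), Nmu, the peptide neuromedin U (1.501), and Galnt6, which begins O-linked glycosylation (1.69). Their adjusted p-values with the block were 0.0101, 0.00658, 0.0236 and 0.0339. Crispld2, a secreted protein, was called without it: it read 209 and 182 at 8 h, against 7.91 and 39.5 at 0 h (3.08 ± 0.53, adjusted p = 0.0368), and lost its call in 9 of the 10 fits without an array.

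In the cAMP pathway that the hormone acts through, 1 gene was called without the block. Crem, whose short ICER forms repress cAMP-responsive promoters, was called on all 3 of its tested probe sets. They read 396 and 384 at 8 h, against 24.8 and 10.2 at 0 h (4.41 ± 0.36, adjusted p = 0.00116), 928 and 565 at 8 h, against 122 and 91.1 at 0 h (2.78 ± 0.38, adjusted p = 0.0102), and 332 and 309.5 at 8 h, against 32.1 and 32.8 at 0 h (3.30 ± 0.57, adjusted p = 0.037). The first was called in all 10 fits without an array, while the second and the third lost their calls in 3 and 8 of them. The array's annotation does not separate Crem from ICER. Pde4d, a phosphodiesterase that degrades cAMP, read 145 and 63.6 at 8 h, against 23.3 and 12.2 at 0 h, and passed only with the block (adjusted p = 0.00658, and 0.107 without). Nr4a3, an orphan nuclear receptor, read 76.3 and 59.1 at 8 h, against 8.996 and 4.44 at 0 h, with both 0 h arrays under the floor (adjusted p = 0.00885 with the block and 0.0965 without). In all, 38 probe sets of the cAMP pathway were tested, with 3 called higher (5 with the block), 0 lower, and a median of -0.03. Of all tested probe sets, 0.743% were called higher (2.30% with the block).

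Other signalling and structural genes were called as well. Ezr, ezrin, which links actin to the cell membrane, read 854 and 652 at 8 h, against 128 and 121 at 0 h (2.58 ± 0.34, adjusted p = 0.0102). Of 39 probe sets of actin, tropomyosin and intermediate filaments it was the only call without the block, the tropomyosin Tpm4 was added with it (2.05, adjusted p = 0.00817, and 0.111 without), and the median was -0.05. The share called higher over all tested probe sets was 0.743% (2.30% with the block). Emd, emerin, a protein of the inner nuclear membrane, read 184 and 180.4 at 8 h, against 10.4 and 12.1 at 0 h, with both 0 h arrays under the floor, and was at least 13.6-fold higher (adjusted p = 0.00124). Its brighter probe set read 585 and 399.7 at 8 h, against 148 and 143 at 0 h, and passed only with the block (adjusted p = 0.0101, and 0.0594 without). Dgcr6 read 461 and 641 at 8 h, against 25.5 and 42.7 at 0 h (4.04 ± 0.38, adjusted p = 0.00151). Emd on its dimmer probe set and Dgcr6 were called in all 10 fits without an array. Cd24, a glycosylated surface protein, was called on 2 of 3 probe sets, the brightest of which read 626 and 500.1 at 8 h, against 51.5 and 14.9 at 0 h (4.34 ± 0.76, adjusted p = 0.0372). The others changed by 3.78 (adjusted p = 0.0222) and 3.61 (adjusted p = 0.107 without the block and 0.00288 with it). Nefh, the heavy neurofilament subunit, read 237 and 83.9 at 8 h, against 1.19 and 10.2 at 0 h, with both 0 h arrays under the floor, and was at least 10.5-fold higher (adjusted p = 0.0101 with the block and 0.0608 without). Ezr was not called when any 1 of the 4 arrays compared was left out (adjusted p 0.0527 to 0.143), and the 2 Cd24 probe sets lost their calls in 8 and 4 of the 10 fits without an array.

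The remaining called genes are listed to complete the 26, and like Slc25a30, Hagh and Crispld2 they fall outside the rule by which genes were named, with the exception of LOC102547700. Ptp4a1, a tyrosine phosphatase, read 1997 and 1618 at 8 h, against 187 and 290.1 at 0 h (2.95 ± 0.42, adjusted p = 0.0126). Gucy1b1, a subunit of the nitric oxide receptor guanylate cyclase, read 451 and 313 at 8 h, against 49.6 and 52.8 at 0 h (2.87, adjusted p = 0.0104). Pmp22, a membrane protein named for peripheral myelin, read 943 and 738 at 8 h, against 165 and 145 at 0 h (2.43, adjusted p = 0.0102). RT1-DMa, a chain of the class II peptide-loading molecule, read 120.3 and 173 at 8 h, against 4.23 and 18.8 at 0 h (3.18, adjusted p = 0.0368), and 436 and 343 at 8 h, against 141 and 141 at 0 h on a brighter probe set that passed only with the block (adjusted p = 0.0145). Bmyc, a relative of the Myc factors, changed by 2.47 (adjusted p = 0.0104), Bex3 by 1.64 (adjusted p = 0.0462), and the unnamed locus LOC102547700 by 3.47 and 2.501 on 2 probe sets (adjusted p = 0.00955 and 0.0302). In each of them the 8 h arrays lay above the 0 h arrays. Each lost its call without 8 h replicate 1. Of the 10 fits without an array, Bex3 lost its call in all 10 and the first RT1-DMa probe set in 8. The 2 probe sets of LOC102547700 lost theirs in 2 and 9. Gucy1b1 and Pmp22 lost theirs in 4, and Ptp4a1 and Bmyc in 3.

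Some further genes passed only with the block and were chosen for naming after their values were seen. Mapkapk2, a kinase downstream of p38, read 1105 and 450.1 at 8 h, against 109 and 107 at 0 h (2.70, adjusted p = 0.00199 with the block and 0.0967 without). Litaf, a protein of endosomal membranes, read 428 and 700.4 at 8 h, against 149 and 135 at 0 h (1.95, adjusted p = 0.0083 with the block and 0.0517 without). Klf4, a zinc finger transcription factor, read 171 and 120.1 at 8 h, against 18.9 and 29.4 at 0 h (2.60, adjusted p = 0.0298 with the block and 0.163 without). In all 3 genes both 8 h arrays lay above both 0 h arrays. Rdh10, a retinol dehydrogenase of retinoic acid synthesis, read 206 and 285 at 8 h, against 76.5 and 48.9 at 0 h (1.98, adjusted p = 0.0209 with the block and 0.131 without).

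The falls rested on the fit with the block. Without it, the only called fall was a probe set with no single gene symbol, which read 6.88 and 13.05 at 8 h, both under the floor, against 152 and 95.3 at 0 h (adjusted p = 0.0497). With the block, 17 probe sets were called lower, of which 14 had a single symbol and stood for 13 genes. Their median change was -2.06 within replicate 1 and -1.25 within replicate 2, and 16 of the 17 fell more in replicate 1. In 14 of the 17, 0 h replicate 1 was brighter than 0 h replicate 2, against 51.6% of all tested probe sets. Without 0 h replicate 1, the blocked fit still called 4 of the 17, and all 17 kept their direction. It called 15 when 0 h replicate 2 was left out, 0 when 8 h replicate 1 was, and 1 when 8 h replicate 2 was. The title of 0 h replicate 1 names a control with no time, and its description gives time 0. What sets this array apart was not tested. That array also had the highest deposited value of the spiked control CreX of these 4 (7141 and 2815 at 8 h, against 16221 and 7349 at 0 h).

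Clock genes accounted for 3 of the 17 falls. Dbp, a clock output factor, read 7.93 and 9.69 at 8 h, both under the floor, against 267 and 51.8 at 0 h, so it was lower by at least 8.75-fold (blocked adjusted p = 0.0319, and 0.108 without the block). Its other probe set read 9.60 and 16.01 at 8 h, against 84.9 and 29.1 at 0 h (adjusted p = 0.172 with the block). Nr1d1, or REV-ERB alpha, a repressor of clock genes, read 26.3 and 22.2 at 8 h, against 172 and 80.3 at 0 h, with a log2 change of -2.28 ± 0.36 (adjusted p = 0.00885 with the block and 0.0594 without). A brighter Nr1d1 probe set read 79.6 and 62.9 at 8 h, against 222 and 148 at 0 h (adjusted p = 0.0298 with the block and 0.168 without). Both 8 h arrays lay below both 0 h arrays on all 4 of these probe sets. Of the 10 probe sets of the circadian clock list, 0 were called without the block and 3 with it, all lower and all of Dbp or Nr1d1. Over all tested probe sets, 0.383% were called lower with the block. On the list 6 lay below the 0 h arrays without overlap, where 17.2% of all tested probe sets did. Its median was -0.80, and -0.50 with only the brightest tested probe set of each gene. Bmal1, which Nr1d1 represses and which is given here after its values were seen, read 124 and 64.6 at 8 h, against 19.7 and 19.6 at 0 h (2.18, adjusted p = 0.235, and 0.0769 with the block). In the blocked fit without 0 h replicate 1, Dbp changed by -1.99 (adjusted p = 0.0955) and Nr1d1 by -1.90 and -1.23 (adjusted p = 0.0402 and 0.0782), so 1 Nr1d1 probe set kept its call.

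**Figure D4:**
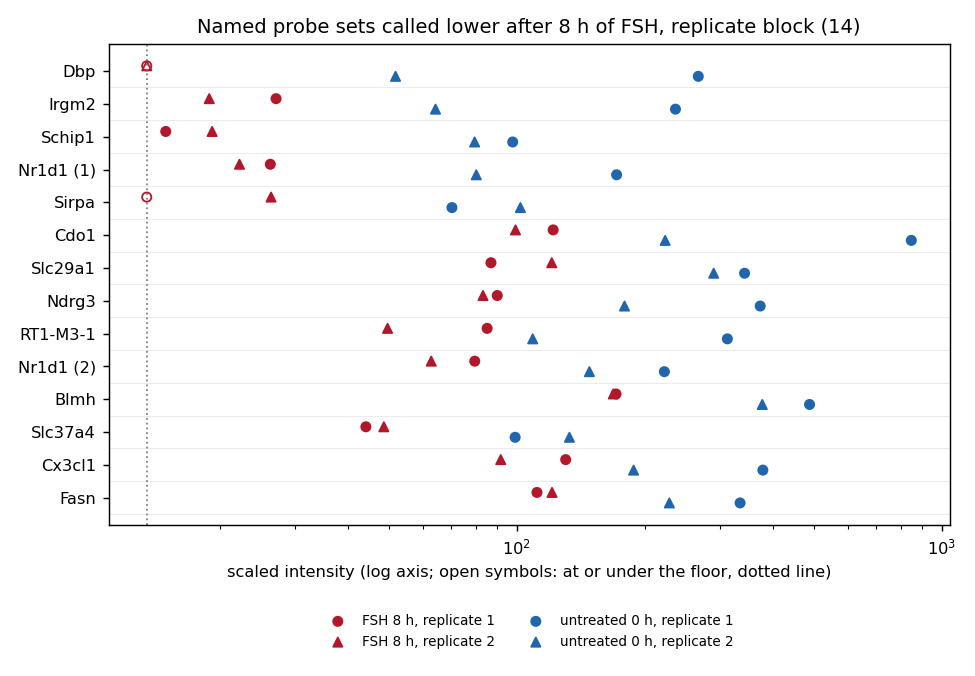
Scaled intensity (log axis) of the 14 single-symbol probe sets called lower with the replicate block, ordered by log2 change, with the 2 arrays at 8 h of FSH in red and the 2 untreated arrays at 0 h in blue; open symbols lie at or under the floor (dotted line). Both red points lie to the left of both blue points in each row, and 0 h replicate 1 (blue circle) is often far to the right of 0 h replicate 2.

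Metabolic and transport genes made up part of the falls. Besides Cdo1 and Fasn, Slc37a4, the glucose 6-phosphate transporter of the endoplasmic reticulum, read 44.1 and 48.6 at 8 h, against 99.1 and 133 at 0 h (-1.31, adjusted p = 0.0396 with the block and 0.186 without). It was the one fall that was larger in replicate 2. Slc29a1, a nucleoside transporter, read 86.9 and 121 at 8 h, against 343 and 291 at 0 h (-1.62, adjusted p = 0.0185 with the block and 0.103 without). Blmh, the cysteine protease bleomycin hydrolase, read 171 and 169 at 8 h, against 488 and 378 at 0 h (-1.34, adjusted p = 0.0396 with the block and 0.2999 without). Schip1 read 14.9 and 19.2 at 8 h, against 97.8 and 79.5 at 0 h (-2.38, adjusted p = 0.0243 with the block and 0.0989 without), and Ndrg3 89.9 and 83.2 at 8 h, against 374 and 179 at 0 h (-1.58, adjusted p = 0.0401 with the block). The groups did not overlap for any of these 5 genes. In the blocked fit without 0 h replicate 1, Schip1 kept its call (adjusted p = 0.0416), while Slc37a4, Slc29a1, Blmh and Ndrg3 had adjusted p-values of 0.064, 0.0611, 0.0548 and 0.122.

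Irgm2, RT1-M3-1, Sirpa and Cx3cl1, all with known roles in immune cells or their recognition, were also among the falls, while RT1-DMa was among the rises. Irgm2, an interferon-induced GTPase, read 27.1 and 18.9 at 8 h, against 236 and 64.3 at 0 h (-2.45, adjusted p = 0.0197 with the block and 0.398 without). RT1-M3-1, a class I histocompatibility gene, read 85.1 and 49.6 at 8 h, against 313 and 109 at 0 h (adjusted p = 0.0348 with the block and 0.645 without). Sirpa, a receptor that restrains phagocytosis, read 5.11 and 26.4 at 8 h, against 70.3 and 102 at 0 h, and Cx3cl1, the chemokine fractalkine, 130.3 and 91.6 at 8 h, against 379 and 188 at 0 h (adjusted p = 0.0388 and 0.0363 with the block). Neither passed without the block, where the adjusted p of Cx3cl1 was 0.369. The list of interferon, antigen presentation and cytokine feedback genes had 34 tested probe sets, of which 0 were called without the block. With it Irgm2 was lower and Nfkb1, a subunit of NF-kB, was higher (567 and 258 at 8 h, against 149 and 43.9 at 0 h, adjusted p = 0.00427, and 0.354 without). With the block, 2.30% of all tested probe sets were called higher and 0.383% lower. The list's median was -0.74, but it was -1.41 within replicate 1 and -0.21 within replicate 2, and -0.22 without 0 h replicate 1. Summed over every probe set of its genes, also those too dim to be tested, its intensity was 4830 and 4372 at 8 h. At 0 h the sum was 10393 and 4843, so the 0 h replicate 1 array alone stood apart. Cxcl10, an interferon-induced chemokine given after its values were seen, read 33.9 and 22.9 at 8 h, against 255 and 24.5 at 0 h. The part of that array in the list's shift was not tested. In the blocked fit without it, Sirpa kept its call (adjusted p = 0.0302), while Irgm2, RT1-M3-1 and Cx3cl1 had adjusted p-values of 0.064, 0.0815 and 0.109.

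Among the probe sets with the 100 smallest p-values in the fit without the block, 3 of the largest falls were not called in either fit. Pla2g5, a secreted phospholipase A2, read 14.4 and 5.44 at 8 h, against 146 and 69.2 at 0 h, with 1 of the 8 h arrays under the floor (adjusted p = 0.12 without the block and 0.0556 with it). This probe set is named for the same sequence record as the fall called without the block, which has no single gene symbol. Grb14, an adaptor that restrains the insulin receptor, read 44.96 and 31.3 at 8 h, against 86.6 and 129 at 0 h (adjusted p = 0.163 without the block and 0.0653 with it). Or10al7, named as an olfactory receptor, read 17.3 and 16.8 at 8 h, against 47.6 and 60.97 at 0 h (adjusted p = 0.12 without the block and 0.0585 with it). The groups did not overlap for any of the 3.

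In the remaining lists, Dusp1 was the gene called. Cell cycle and DNA replication genes (40 probe sets, median -0.03) had 0 calls in either fit. Growth factor receptors, MAP kinase and TGF-beta signalling genes (35 probe sets, median 0.01) had 0 calls without the block and 1 higher with it, where 2.30% of all tested probe sets were called higher. This was Dusp1, a phosphatase that turns off MAP kinases, which read 85.5 and 67.6 at 8 h, against 36.1 and 14.8 at 0 h (adjusted p = 0.0348, and 0.326 without).

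The 8 h arrays were also set directly against those of the other times. Against 2 h, 3 probe sets were higher (0.0676%) and 3 lower (0.0676%), and with the replicate block 32 (0.721%) and 32 (0.721%). The 3 higher ones were the metabolic genes Ass1, Acsl1 and Dgat1. Ass1 read 764 and 206 at 8 h, against 3.37 and 2.36 at 2 h (4.88 ± 0.66, adjusted p = 0.031). Acsl1 read 444 and 358 at 8 h, against 26.3 and 23.2 at 2 h (4.02 ± 0.47, adjusted p = 0.02). Dgat1 read 2614 and 2158 at 8 h, against 349 and 411 at 2 h (2.65 ± 0.38, adjusted p = 0.0425). Scarb1, called only with the block, read 1434 and 569.5 at 8 h, against 109.6 and 74.5 at 2 h (3.32 ± 0.28, adjusted p = 0.000928, and 0.0572 without). Cenpi, a centromere protein, and Nefh were also called only with the block. Cenpi read 132 and 105 at 8 h, against 19.6 and 16.5 at 2 h (adjusted p = 0.0449), and Nefh 237 and 83.9 at 8 h, against 23.6 and 8.05 at 2 h (adjusted p = 0.0357). At 2 h, the mean log2 difference from 0 h was 0.00 for Ass1, where all 4 arrays lay under the floor, 0.12 for Acsl1, 0.69 for Dgat1 and -0.44 for Scarb1. Without either 8 h array or either 2 h array, 0 probe sets were called in either direction against 2 h.

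The 3 probe sets lower than at 2 h were early response genes. Nr4a2, an orphan nuclear receptor, read 13.2 and 16.01 at 8 h, against 254 and 171 at 2 h. Id3, an inhibitor of helix-loop-helix factors, read 66.6 and 79.5 at 8 h, against 610.1 and 575 at 2 h, and Junb, an AP-1 subunit, 171 and 182 at 8 h, against 936 and 898 at 2 h. Their log2 changes were -3.83, -3.03 and -2.38 (adjusted p = 0.02, 0.00966 and 0.02). Against 0 h, the 8 h arrays gave log2 changes of 0.13, -0.62 and -0.10 for these 3 (adjusted p = 0.973, 0.577 and 0.971). The other tested Nr4a2 probe set was higher at 8 h than at 0 h under every setting tried, by 0.12 to 1.92, and was called in none. Cebpb, a factor of the C/EBP family, Errfi1, a feedback inhibitor of the EGF receptor, and Nr4a1, a relative of Nr4a2, were added with the block, at -3.79, -3.65 and -3.62 (adjusted p = 0.0148, 0.0139 and 0.00579).

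Against 4 h, 0 probe sets were called in either direction by limma without the block (0%), where 152 had an unadjusted p under 0.05. With the block 0 were higher (0%) and 4 lower (0.0901%), 2 of them of Ocln, occludin of the tight junction. Ocln read 84.1 and 56.9 at 8 h, against 561 and 333 at 4 h on its brighter probe set (-2.64 ± 0.37, adjusted p = 0.0432, and 0.356 without). Its dimmer probe set changed by -2.68 ± 0.34 (adjusted p = 0.0298 with the block and 0.0965 without).

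Against 24 h, 10 probe sets were higher at 8 h (0.225%) and 0 lower (0%), and with the block 41 (0.924%) and 10 (0.225%). Ass1 was again under the floor at 24 h, with 3.30 and 2.59, and was at least 29.5-fold higher at 8 h (4.88 ± 0.66, adjusted p = 0.0258). Acsl1 read 444 and 358 at 8 h, against 21.2 and 30.4 at 24 h (3.97 ± 0.47, adjusted p = 0.0109). Dgat1 read 2614 and 2158 at 8 h, against 247 and 264 at 24 h (3.22 ± 0.38, adjusted p = 0.0109), and Plat 500.2 and 607 at 8 h, against 52.5 and 71.2 at 24 h (3.17 ± 0.34, adjusted p = 0.0109). Crem, Emd, Gchfr and LOC102547700 were also higher at 8 h, by 3.69 ± 0.36, 2.95 ± 0.34, 3.33 ± 0.52 and 3.02 ± 0.45, as were Mvk (2.47 ± 0.36) and Dgcr6 (2.64 ± 0.38). Their adjusted p-values lay between 0.0109 and 0.0489. Inha was not called against 24 h: it read 2944 and 1456 at 8 h, against 1429 and 819.6 at 24 h (0.94 ± 0.55, adjusted p = 0.94, and 0.159 with the block). For Wfdc1 the difference had the other sign (-0.46 ± 0.64, adjusted p = 0.815 with the block). Without either 8 h array or without 24 h replicate 2, 0 of the 10 calls against 24 h were made, and without 24 h replicate 1 there were 2.

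Clock genes were also among the 10 probe sets lower at 8 h than at 24 h with the block, a comparison that shares its 8 h arrays with the one against 0 h. Dbp read 7.93 and 9.69 at 8 h, both under the floor, against 309 and 142 at 24 h (-3.96 ± 0.63, adjusted p = 0.0176, and 0.0758 without). Nr1d1 read 26.3 and 22.2 at 8 h, against 101 and 93.6 at 24 h (-2.01 ± 0.36, adjusted p = 0.0319, and 0.15 without). Slc37a4 and Schip1 changed by -1.56 ± 0.28 and -2.38 ± 0.46 (adjusted p = 0.0319 and 0.0418). At 24 h these Dbp and Nr1d1 probe sets lay within or above the range of their 0 h arrays, whereas the brighter Nr1d1 probe set read 155 and 125 at 24 h, with replicate 2 below both of its 0 h arrays. Both genes were also low at 4 h, and Nr1d1 already lay below both of its 0 h arrays at 2 h. Dbp read 62.04 and 103 at 2 h and 8.11 and 12.8 at 4 h, both under the floor at 4 h, and Nr1d1 read 51.04 and 33.5 at 2 h and 36.3 and 28.4 at 4 h. Neither was called between 8 h and 2 h or 4 h, with or without the block. Tyro3, a receptor tyrosine kinase, read 141 and 96.98 at 8 h, against 586 and 399 at 24 h (adjusted p = 0.0152 with the block). Igf2r, the receptor that clears insulin-like growth factor 2, read 62.9 and 58.2 at 8 h, against 232 and 184 at 24 h (adjusted p = 0.0319 with the block). Fam229a read 29.8 and 61.7 at 8 h, against 254 and 175 at 24 h (adjusted p = 0.0418 with the block), and Fam219b 49.9 and 56.9 at 8 h, against 192 and 135 at 24 h (adjusted p = 0.0319 with the block). In each of these 4 genes both 8 h arrays lay below both 24 h arrays.

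**Figure D5:**
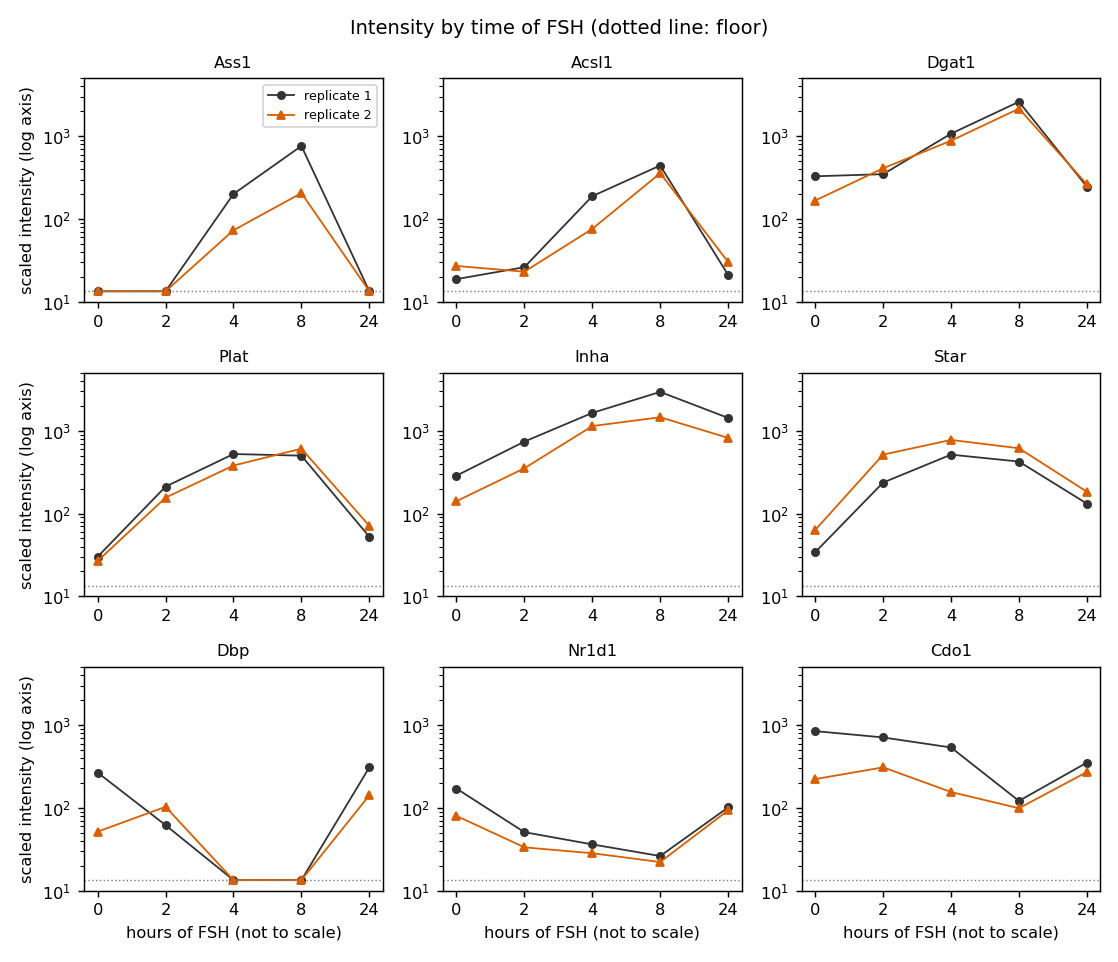
Scaled intensity (log axis, floored at the dotted line) of 9 genes at 0, 2, 4, 8 and 24 h, with replicate 1 in black and replicate 2 in orange. Ass1, Acsl1 and Dgat1 are high only at 4 and 8 h, and Inha stays up at 24 h. Dbp is low at 4 and 8 h and Nr1d1 at 2, 4 and 8 h, and both are higher again at 24 h in both replicates.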

How the data were processed

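Affymetrix rat arrays of total RNA from cultured Sertoli cells were deposited as 1 intensity value per probe set. How the authors made these intensity values is not given in the sources used here, but the mean of each array after 2% was trimmed from each end lay between 125.2 and 125.3, so the deposited values had been scaled to a common level. The values were taken as linear intensity, divided so that all arrays shared a 75th percentile of 108, floored at that percentile divided by 8 (13.5) and set on the log2 scale. Of 8799 rows, 59 control probe sets were left out, and 4439 of 8740 probe sets with a mean at or above the pooled median of 32.0 were tested. Gene names came from the platform annotation, which can be old: 7006 probe sets had 1 symbol, 308 several and 1426 none, and 6985 of the single symbols were in RefSeq (GRCr8). Only probe sets with 1 symbol are named.

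The fit was limma 3.58.1 in R 4.3.3 with 1 mean per group over all 10 arrays, an intensity trend and 5 residual degrees of freedom, with Benjamini-Hochberg adjustment over all 4439 probe sets and a threshold of 0.05. It was tested on simulated data. The replicate numbers come from the labels. One 2 h array carries no number and was taken as replicate 1 because the other is replicate 2. Deviations of same-numbered arrays from their group means correlated between every pair of groups (r = 0.110 to 0.698), so the numbers were taken to pair the arrays. A fit with the replicate block (4 residual degrees of freedom) is given where it changes a call or a count. For some genes called only with the block the blocked adjusted p stands alone, and these did not pass without it. Named are the 15 largest rises and falls called in either fit, the 15 largest falls among the 100 smallest p-values, called members of 18 gene lists, a set of genes known in Sertoli cells, and the 8 largest calls in each direction against other times. Members and lists were chosen with earlier results of these data known. Alternatives changed the normalization, floor, filter, trend, block and arrays. The number of arrays limits the precision.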

Additional observations from a re-analysis of the deposited data

How the results depend on the processing

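With 2 arrays a group, the counts depended on how the spread was estimated. Against 0 h, 33 probe sets were higher and 1 lower. With the replicate block these were 102 and 17, with the replicate block and no 2 h group 95 and 8, with the block and only the 2 groups compared 105 and 33, with the block and quantile normalization 116 and 21, and with the block and a lower divisor of 4 for the floor 101 and 21. The block with only the 2 groups leaves 1 residual degree of freedom, so its spread is poorly estimated and its counts are uncertain. With only the 2 groups and no block the counts were 18 and 0. Without the block, the lower count was 0 with quantile normalization, with a floor divisor of 4 and with one of 16, and 9 with no filter on dim probe sets. The higher count stayed between 25 and 39 under those and under the deposited values and no trend, but the probe sets called were not all the same. With no filter, 17 of the 33 rises were still called, and under the other settings of this group 28 to 33 were. Leaving out 1 array gave 5 to 26 higher and 0 to 2 lower without the block, and 27 to 221 higher and 0 to 163 lower with it, where the fit lacking 0 h replicate 1 gave 133 and 14 and the one lacking 8 h replicate 2 gave 35 and 7. Without the block 10 fits lacking an array were made, and with it 4, those lacking an array of 0 h or 8 h. The upper ends with the block both came from the fit lacking 0 h replicate 2. The blocked fits without an array, with quantile normalization or with another floor were chosen after seeing the data.

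Against 2 h, 3 were higher and 3 lower. These counts were 32 and 32 with the block, 0 and 0 with only the 2 groups, 98 and 68 with the block and only the 2 groups, 8 and 12 with a floor divisor of 4, and 1 and 5 with no filter. The lower count was 11 with the deposited values and 5 with no trend. Leaving out 1 array gave 0 to 2 higher and 0 to 5 lower. Against 4 h, 0 were called in either direction by limma without the block (152 had a raw p under 0.05). With the block 4 were lower, also 4 without the 2 h group, with the block and only the 2 groups 65 were higher and 81 lower, and with no filter 2 and 11. Leaving out 1 array gave 0 and 0. Against 24 h, 10 were higher and 0 lower. These were 41 and 10 with the block, 40 and 6 with the block and no 2 h group, 96 and 39 with the block and only the 2 groups, and 1 and 1 with no filter. The higher count was 0 with only the 2 groups, 16 with quantile normalization and 17 with a floor divisor of 4. Leaving out 1 array gave 0 to 14 higher and 0 to 1 lower. The cause of these moves was not tested. Fewer arrays leave fewer degrees of freedom, but fits on fewer arrays gave both larger and smaller counts. The block with only the 2 groups again leaves 1 residual degree of freedom in each of these comparisons, so its counts are uncertain here as well. The block without the 2 h group could give no value against 2 h. Of 175 probe sets followed against 0 h under every alternative, 34 were called, and none of the 34 changed sign; 29 of the uncalled ones did in at least 1 alternative. Low intensities near the floor limit the size of a change that can be read.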
